A study of Mus musculus with 36 samples.

Results

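The miR-193 and miR-365 clusters pair a miR-193 gene with a miR-365 gene at each of 2 loci, and the members described here are mmu-miR-193a-3p, mmu-miR-193b-3p, mmu-miR-365-3p and mmu-miR-365-1-5p, written below without the species prefix. These 4 mature miRNAs, of the 1963 listed in the tables, were chosen by name with their levels and differences between these groups known, so those levels are given as a description without a test. The libraries came from the ventral and lateral prostate lobes of male mice of strain C56NL/6N, as the labels spell it, with 3 libraries in each of 12 groups and 36 in all. WT mice carried the wild-type Elac2 gene, which encodes the RNase that trims the 3′ end of precursor tRNAs. KO mice were homozygous for a deletion of Elac2 driven by Cre under the probasin promoter, which is active in prostate epithelium, so the other cells of the lobe kept the gene. A537T mice were homozygous, in every tissue, for the alanine-to-threonine substitution that names the line. Each genotype was studied at 10 and 30 weeks of age without a transgene (TRAMP-/-) and with 1 copy of the TRAMP transgene (TRAMP+/-), which expresses the SV40 T antigens in prostate epithelium from the same promoter. Levels are given as CPM, a miRNA's reads per 1000000 miRNA reads of its library.

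MicroRNAs are cut from hairpin precursors, and either arm of the hairpin, named 5p or 3p, can be loaded into Argonaute to repress messenger RNAs that pair with its seed, the bases near its 5′ end. The clusters of miR-193 with miR-365 are known for their part in brown fat and muscle differentiation. miR-193b is known as a growth-restraining miRNA that represses cyclin D1 and is often silenced in prostate cancer cells.

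The mature sequences are shown because 2 pairs among them share a seed, written in capitals (bases 2 to 8), and because miR-365-3p is the same from both of its genes. All sequences are from RefSeq, assembly GRCm38.p6, written 5′ to 3′.
miR-193a-3p: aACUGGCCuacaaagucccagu
miR-193b-3p: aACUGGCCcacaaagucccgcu
miR-365-3p: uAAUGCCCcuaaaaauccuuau
miR-365-1-5p: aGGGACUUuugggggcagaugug
miR-365-2-5p: aGGGACUUucaggggcagcugug
miR-193a-3p and miR-193b-3p had the same seed and 19 of 22 bases in common. Counted from 1 at the 5′ end, with miR-193a-3p first, they differed by U9C, A20G and G21C. miR-365-1-5p and miR-365-2-5p, the 5p arms of the 2 miR-365 genes, also had the same seed, shared 20 of 23 bases and differed by U10C, G11A and A19C, with miR-365-1-5p first. The seed of miR-365-3p was found in no other mature miRNA of the reference table, and neither of the other 2 seeds was found outside its pair.

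The precursors are shown with their mature arms in capitals, since the comparison of arms below rests on them.
Mir193a: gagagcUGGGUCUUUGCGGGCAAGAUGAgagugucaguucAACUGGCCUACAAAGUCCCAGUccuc
Mir365-2: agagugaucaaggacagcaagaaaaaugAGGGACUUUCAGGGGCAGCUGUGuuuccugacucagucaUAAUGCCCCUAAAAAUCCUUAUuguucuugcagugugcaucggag
Mir193b: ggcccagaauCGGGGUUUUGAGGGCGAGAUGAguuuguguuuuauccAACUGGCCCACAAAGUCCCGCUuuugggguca
Mir365-1: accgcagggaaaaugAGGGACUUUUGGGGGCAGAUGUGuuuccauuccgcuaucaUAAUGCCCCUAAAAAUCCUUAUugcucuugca
Mir193a lies on the plus strand at chr11:79711969-79712034 and Mir365-2 on the same strand at chr11:79726400-79726511, with 14365 bases between them. Mir193b lies on the plus strand at chr16:13449523-13449601 and Mir365-1 at chr16:13453840-13453926, with 4238 bases between them. In the GRCm38 annotation all 4 are single-exon miRNA genes. Both genes on chromosome 16 lie within the span of the antisense gene Gm15738 on the minus strand, at 13354374 to 13468755, and those on chromosome 11 overlapped no other gene. Reads of miR-365-3p can come from either locus and cannot be assigned to 1 of them. The 5p arms differ in sequence, so miR-365-1-5p marks the chromosome 16 copy and miR-365-2-5p the chromosome 11 copy.

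Depth set the counting error of each member, apart from the spread between mice. Totals ran from 4544257 to 21870210 miRNA reads in 35 libraries, and library 35 (A537T, 10 weeks) held 655455. Libraries 1 to 18 were all TRAMP and libraries 19 to 36 all without TRAMP, so the order of library numbers and the transgene cannot be told apart. miRNAs typical of epithelium took 3.95% to 10.3% of the reads, with all 8 of that list detected. miRNAs typical of skeletal muscle took 9.71% to 30.6% in WT at 10 weeks, 3.72% to 13.7% in A537T at 10 weeks, and 0.187% to 6.49% in the other groups. miRNAs typical of smooth muscle had a median of 26.7% in the 18 libraries without TRAMP and 13.4% in the 18 TRAMP libraries.

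All 4 members were detected in 36 of 36 libraries and passed the filter of a mean of at least 1 CPM, but at very different levels. As mean CPM over the 36 libraries, miR-365-3p stood at 138 and ranked 145 of 1963, and miR-193b-3p at 128 and ranked 149. miR-365-1-5p followed at 7.11 CPM (rank 336) and miR-193a-3p at 2.67 CPM (rank 423). The mature sequences are 22 or 23 bases long, so these levels compare reads over nearly the same length. Counts of miR-193a-3p ran from 9 to 141 reads in 35 libraries, and 1 read in library 35 gave 1.53 CPM with a 95% Wilson interval of 0.269 to 8.64 CPM. In the same library, 172 reads of miR-365-3p gave 262 CPM with an interval of 226 to 305 CPM. These intervals cover counting error only.

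The question for the TRAMP transgene was how each member differed between TRAMP and non-TRAMP mice of 1 genotype and age. miR-365-3p separated the 2 backgrounds completely. At 10 weeks without TRAMP, miR-365-3p read 266, 204 and 190 CPM in WT, 146, 146 and 163 CPM in KO, and 257, 262 and 218 CPM in A537T. With TRAMP at that age it read 98.6, 69.3 and 60.3 CPM in WT-TRAMP, 40.9, 58.8 and 41.0 CPM in KO-TRAMP, and 80.0, 37.8 and 60.2 CPM in A537T-TRAMP. Every TRAMP library at 10 weeks was below every library without TRAMP. At 30 weeks miR-365-3p read 267, 309 and 293 CPM in WT, 118, 223 and 141 CPM in KO, and 236, 360 and 154 CPM in A537T. With TRAMP at 30 weeks it read 55.7, 40.8 and 51.3 CPM in WT-TRAMP, 46.1, 63.5 and 65.2 CPM in KO-TRAMP, and 64.2, 51.9 and 48.0 CPM in A537T-TRAMP. Over both ages the 18 TRAMP libraries ran from 37.8 to 98.6 CPM and the 18 others from 117.6 to 359.5 CPM, with no overlap.

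The fold of miR-365-3p was largest in WT at 30 weeks, where the mean was 5.88 times higher without TRAMP (289.9 ± 21.4 against 49.3 ± 7.66 CPM, SD, n = 3 each). On the log2(CPM + 1) scale that difference was -2.54 (SE 0.28), the third lowest of the 514 miRNAs tested. In A537T at 30 weeks it was -2.10 (SE 0.28), rank 2 from the lowest of 514. In KO at 30 weeks it was -1.41 (SE 0.28), rank 13. At 10 weeks the differences of miR-365-3p were -1.54 in WT, -1.69 in KO and -2.09 in A537T, each with an SE of 0.28. They ranked 30, 35 and 13 from the lowest. Because the member was chosen with these levels known, nothing is read from the ranks.

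miR-193b-3p was also lower with TRAMP in all 6 comparisons, with more spread within groups. At 10 weeks it read 278, 240 and 55.9 CPM in WT against 136, 104 and 92.4 CPM in WT-TRAMP, and the groups overlapped through library 30 alone. In KO at 10 weeks it read 178, 244 and 177 CPM against 35.6, 135 and 45.5 CPM in KO-TRAMP, and in A537T 290, 232 and 162 CPM against 84.0, 82.8 and 99.3 CPM in A537T-TRAMP. Neither of these 2 pairs of groups overlapped. At 30 weeks miR-193b-3p read 139, 339 and 265 CPM in WT against 58.3, 38.6 and 42.1 CPM in WT-TRAMP. It read 103, 72.7 and 109 CPM in KO against 42.7, 16.9 and 34.5 CPM in KO-TRAMP, again with no overlap. In A537T at 30 weeks, 106, 347 and 60.3 CPM stood against 40.9, 91.1 and 35.3 CPM in A537T-TRAMP, and these groups overlapped. The log2 differences of miR-193b-3p were -0.51, -1.69 and -1.32 at 10 weeks and -2.32, -1.64 and -1.34 at 30 weeks, in the order WT, KO and A537T (SE 0.56 each). In WT at 10 weeks the difference was -1.24 when library 30, which had the highest share of skeletal muscle miRNAs (30.6%) and the lowest smooth muscle share of its group (6.74%), was left out.

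miR-193a-3p, the rarer partner with the same seed, was lower with TRAMP in all 6 comparisons as well. In WT it read 7.21, 5.68 and 1.93 CPM at 10 weeks and 2.35, 3.301 and 4.69 CPM at 30 weeks. In WT-TRAMP it read 2.42, 2.80 and 1.43 CPM at 10 weeks and 1.51, 1.78 and 0.797 CPM at 30 weeks. These groups overlapped at 10 weeks, through library 30, and not at 30 weeks. In KO the values were 7.59, 4.03 and 3.11 CPM at 10 weeks and 2.37, 1.85 and 2.71 CPM at 30 weeks, and in KO-TRAMP they were 1.66, 1.33 and 1.56 CPM and 0.799, 1.62 and 0.640 CPM. In A537T miR-193a-3p read 5.46, 1.53 and 4.25 CPM at 10 weeks and 3.66, 4.55 and 2.06 CPM at 30 weeks, against 0.865, 2.67 and 2.46 CPM and 0.968, 1.43 and 1.04 CPM in A537T-TRAMP. The KO pairs did not overlap at either age and the A537T pair overlapped at 10 weeks only, through library 35. The log2 differences of miR-193a-3p lay between -1.16 and -0.62 (SE 0.37 each), a scale that understates the change of so rare a miRNA.

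miR-365-1-5p, which marks the chromosome 16 copy of miR-365, moved least. In WT it read 10.4, 12.6 and 5.14 CPM at 10 weeks and 10.6, 14.99 and 11.2 CPM at 30 weeks, and in WT-TRAMP 9.02, 7.90 and 7.15 CPM and 5.99, 4.38 and 5.27 CPM. In KO it read 6.68, 8.29 and 5.07 CPM at 10 weeks and 6.83, 5.01 and 5.49 CPM at 30 weeks, and in KO-TRAMP 4.08, 5.33 and 6.72 CPM and 4.88, 3.25 and 3.97 CPM. In A537T it read 11.1, 10.7 and 6.40 CPM at 10 weeks and 4.94, 16.5 and 2.19 CPM at 30 weeks, and in A537T-TRAMP 8.26, 5.94 and 7.53 CPM and 2.56, 6.27 and 3.35 CPM. The groups overlapped in all 3 genotypes at 10 weeks and in A537T at 30 weeks. WT and KO at 30 weeks did not overlap with their TRAMP groups, and there the log2 differences were -1.09 and -0.43 (SE 0.39 each). The other 4 differences were -0.52 to -0.13. Leaving out library 26 turned the A537T difference at 30 weeks from -0.52 to 0.15. In WT at 10 weeks the difference was -0.13. Leaving out 1 library at a time gave -0.47, without library 30, to 0.10 there, so its sign depended on the library left out.

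**Figure D1:**
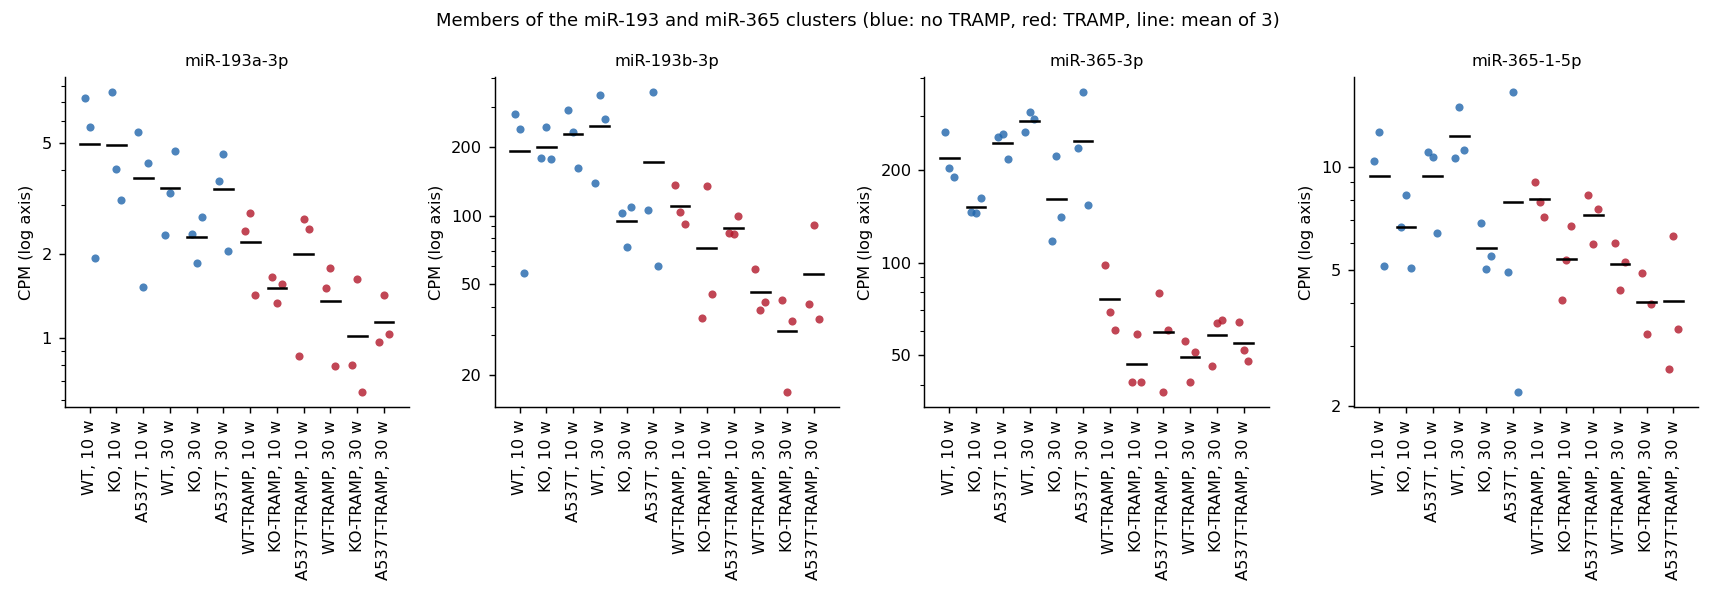
Level of each member in CPM (vertical axes, log scale) in the 3 libraries of each of the 12 groups (horizontal axes, w for weeks). Points are libraries, blue without TRAMP and red with TRAMP, and black lines are group means. For miR-365-3p all 18 red points, at 37.8 to 98.6 CPM, lie below all 18 blue points, at 117.6 to 359.5 CPM, while the colours overlap for the other 3 members.

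Counted over the 24 pairs of member and TRAMP comparison, all 3 TRAMP libraries were below all 3 others in 16 pairs and above in 0. The share of all 514 tested miRNAs that lay above in this way was 24.3%, 23.2% and 16% in WT, KO and A537T at 10 weeks and 23.3%, 32.1% and 19.5% at 30 weeks. In WT at 10 weeks 1 of 4 members was below without overlap, against 17.9% of all miRNAs tested, and in KO it was 3 of 4 against 37.2%. In A537T at 10 weeks it was 2 of 4 against 33.1%. At 30 weeks it was 4 of 4 in WT against 23.2%, 4 of 4 in KO against 9.53% and 2 of 4 in A537T against 11.5%. Because the members were chosen on these levels, nothing is read from the counts. The median log2 difference of the 4 members lay between -1.71 and -0.64 in the 6 comparisons, and that of all 514 miRNAs tested between -0.40 and 0.34. In bulk tissue, fewer cells of a type and less miRNA per cell cannot be told apart.

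Markers of other cell types moved between the same groups. Of the 10 miRNAs listed as known from brown or beige fat cells, 1 to 3 rose and 1 to 5 fell with TRAMP in each of the 6 comparisons (limma, adjusted p under 0.05). Their median log2 differences were -0.72 to -0.15, and their summed share was 4.75% to 6.96% of reads without TRAMP and 3.84% to 6.59% with it, mostly miR-26a-5p and miR-30c-5p, which many tissues express. Of the 4 smooth muscle miRNAs, led by miR-143-3p and miR-145a-5p, 4 fell in KO at 10 weeks (median -1.51) and 0 passed in the other 5 comparisons (medians -0.83 to -0.35). Their share was 6.74% to 39.4% without TRAMP and 5.59% to 33.9% with it. Of the 5 skeletal muscle miRNAs tested, of 6 listed, miR-1a-3p and miR-133a-3p being the most abundant, 5, 2 and 4 fell at 10 weeks in WT, KO and A537T, and at 30 weeks 0 fell and 1 rose, in KO. The 5 leukocyte miRNAs, led by miR-142a-5p and miR-142a-3p, had a median share of 0.0384% without TRAMP and 0.0731% with it. At 10 weeks 2, 1 and 0 of them rose and 1, 2 and 2 fell in WT, KO and A537T. miR-142a-5p was among those that rose in WT and KO, miR-155-5p fell in all 3 genotypes, and miR-223-3p fell in KO and A537T. miR-155-5p and miR-223-3p were named after their values were seen. At 30 weeks 3, 3 and 2 rose and 0 fell. Of the 8 epithelial miRNAs, led by miR-200b-3p and miR-200a-3p, 1 to 5 rose and 0 to 2 fell. For comparison, 19.8%, 14.4% and 12.6% of all miRNAs tested rose with TRAMP in WT, KO and A537T at 10 weeks, and 15.4%, 27.2% and 8.56% at 30 weeks. The part of these cell types in the levels of the members was not tested. With skeletal muscle reads left out of the totals, all 24 member differences with TRAMP kept their sign.

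The other arms of the same precursors, miR-193a-5p, miR-193b-5p and miR-365-2-5p, were not used to choose the members and were tested with limma over all 514 miRNAs. They come from the same hairpins in the same libraries. miR-193a-5p, the 5p arm of Mir193a, was the more abundant arm of its hairpin. At 10 weeks it read 6.64, 7.36 and 13.7 CPM in WT against 4.84, 4.499 and 3.81 CPM in WT-TRAMP, a log2 difference of -0.87 (SE 0.28, adjusted p = 0.0182). In A537T at 10 weeks it read 7.18, 9.15 and 8.31 CPM against 3.62, 2.06 and 3.92 CPM, a difference of -1.16 (adjusted p = 0.00297). In KO at that age it read 3.93, 4.19 and 4.39 CPM against 5.10, 2.76 and 3.28 CPM, and these groups overlapped (-0.16, adjusted p = 0.645). KO without TRAMP lay within the range of the TRAMP groups, 1.95 to 5.10 CPM. At 30 weeks miR-193a-5p read 9.74, 7.84 and 8.28 CPM in WT against 2.69, 3.76 and 3.25 CPM in WT-TRAMP (-1.19, adjusted p = 0.00235). In KO it read 4.801, 11.7 and 4.59 CPM against 1.95, 4.30 and 3.65 CPM (-0.83, adjusted p = 0.0219), and in A537T 6.77, 7.65 and 5.68 CPM against 3.53, 2.53 and 3.35 CPM (-0.90, adjusted p = 0.0354). The TRAMP libraries were lower without overlap in these 3 pairs.

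miR-193b-5p, the rare arm of the Mir193b hairpin, fell with TRAMP in 2 of 6 comparisons. In WT at 30 weeks it read 4.87, 5.78 and 4.69 CPM against 1.62, 0.957 and 0.981 CPM in WT-TRAMP, a log2 difference of -1.49 (SE 0.32, adjusted p = 0.000779). In A537T at 10 weeks it read 4.07, 3.05 and 2.16 CPM against 1.89, 0.606 and 1.38 CPM (-0.85, adjusted p = 0.0363), where the 3.05 CPM of library 35 rested on 2 reads. In neither pair did the groups overlap. The other 4 differences of miR-193b-5p were -0.87 to -0.54, with adjusted p of 0.0623 to 0.205. miR-365-2-5p, the 5p arm of the chromosome 11 copy, passed in 0 of 6, with differences of -0.50 to -0.02 and adjusted p of 0.0631 to 0.955 (limma). At an unadjusted p under 0.05, 10 of the 18 tests of the 3 arms passed, against 7 after adjustment. edgeR's quasi-likelihood test passed 9 and DESeq2's Wald test 8.

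The share of all tested miRNAs called lower by limma was 14.2%, 28.4% and 22.4% in WT, KO and A537T at 10 weeks, where 1, 0 and 2 of the 3 arms fell. At 30 weeks it was 14.8%, 8.56% and 2.33%, where 2, 1 and 1 of the 3 arms fell. Leaving out 1 library at a time kept 3 of the 7 calls: miR-193a-5p in A537T at 10 weeks and in WT at 30 weeks, and miR-193b-5p in WT at 30 weeks. The call of miR-193a-5p in WT at 10 weeks was lost without library 3 (adjusted p = 0.0635) or library 30 (adjusted p = 0.135), and that in KO at 30 weeks without library 16 (adjusted p = 0.126) or library 23 (adjusted p = 0.216). Its call in A537T at 30 weeks was lost without any of libraries 13, 14, 15, 25 and 26 (adjusted p of 0.0512 to 0.164). The call of miR-193b-5p in A537T at 10 weeks was lost without library 5, 6, 34 or 35 (adjusted p of 0.0605 to 0.174).

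**Figure D2:**
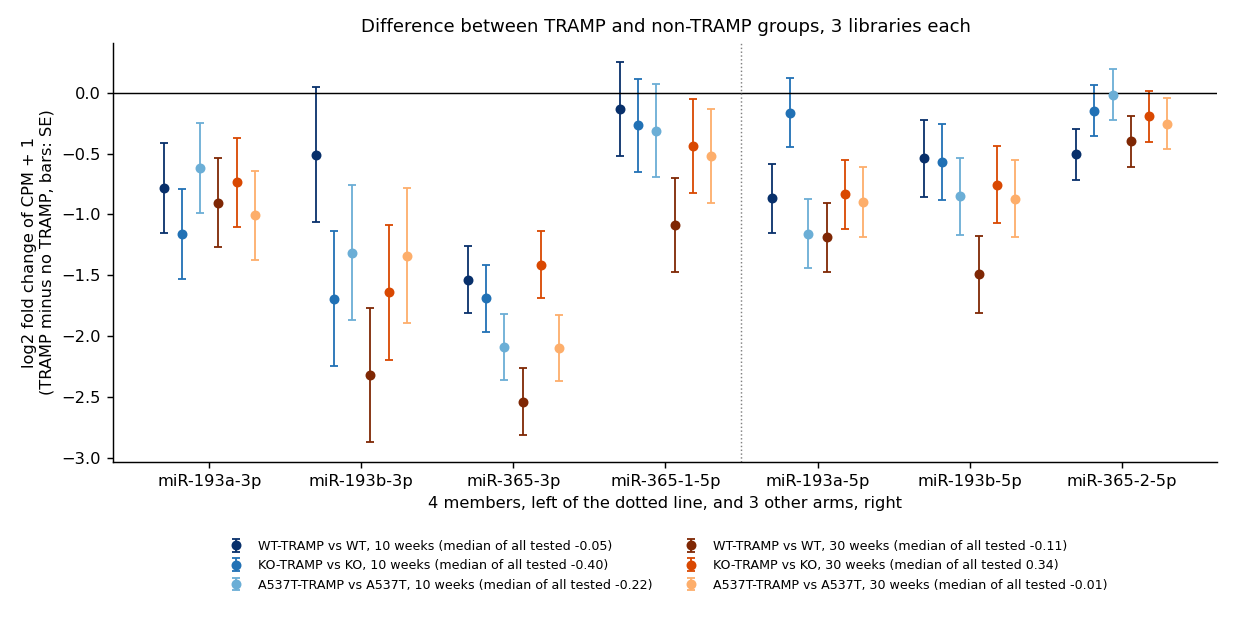
Difference between TRAMP and non-TRAMP groups on the log2(CPM + 1) scale (vertical axis) for the 4 members and the 3 other arms (horizontal axis), 3 libraries a group. Points are the 6 comparisons, bars are standard errors from limma, and the legend gives the median of all 514 miRNAs tested. All 42 points lie below 0, from -2.54 for miR-365-3p in WT at 30 weeks to -0.02 for miR-365-2-5p in A537T at 10 weeks.

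**Figure D3:**
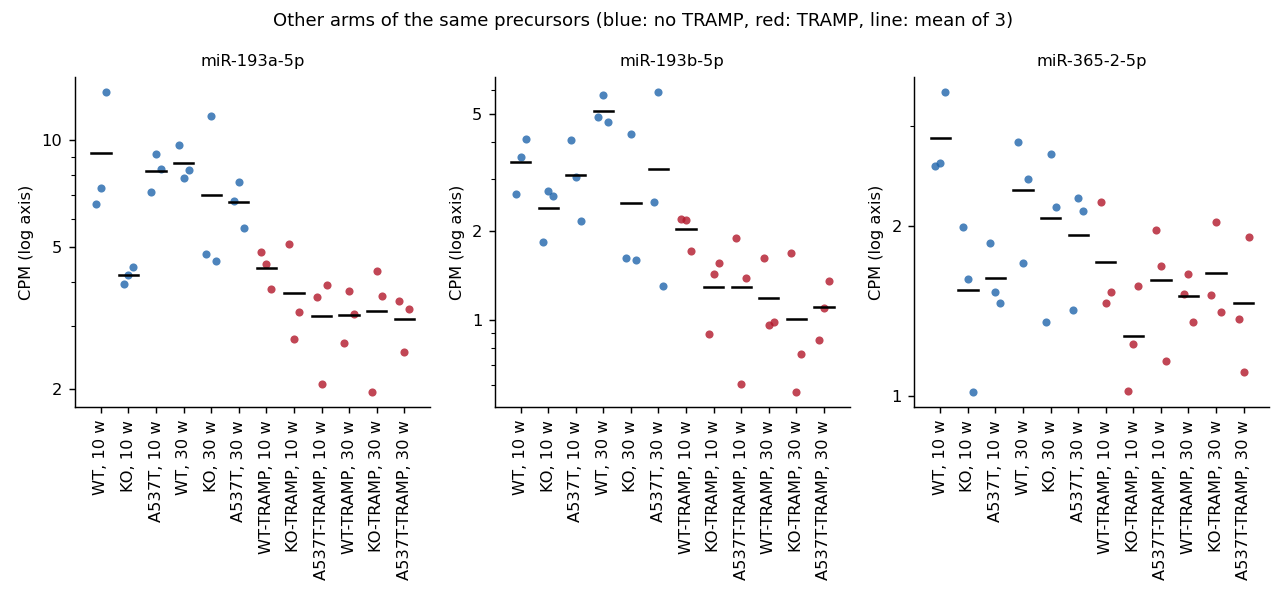
Level of the other arms in CPM (vertical axes, log scale) in the 3 libraries of each group (horizontal axes, w for weeks), blue without TRAMP and red with TRAMP, with group means as black lines. miR-193a-5p sits at 3.93 to 4.39 CPM in KO at 10 weeks, within the range of the TRAMP groups, and at 6.64 to 13.7 CPM in WT of that age.

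The second question was whether the Elac2 genotype went with a difference in the members within 1 background and age. The clearest separation was in KO at 30 weeks. There miR-193b-3p was 94.7 ± 19.3 CPM in KO and 247.6 ± 101.3 CPM in WT (SD, n = 3), a log2 difference of -1.30 (SE 0.56). miR-365-3p was 160.8 ± 55.5 CPM against 289.9 ± 21.4 CPM (-0.90, SE 0.28), and miR-365-1-5p 5.78 ± 0.944 CPM against 12.3 ± 2.37 CPM (-0.96, SE 0.39). All 3 KO libraries were below all 3 WT libraries for these 3 members, against 13.6% of all miRNAs tested in that direction. miR-193a-3p, at 2.31 ± 0.433 against 3.45 ± 1.18 CPM, overlapped. The median log2 difference of all miRNAs tested was itself -0.19 in this comparison, and -0.0043 with TMM scaling. Under the alternative settings, apart from leaving out single libraries, the differences of miR-193b-3p, miR-365-3p and miR-365-1-5p were as small as -1.05, -0.57 and -0.68. The leukocyte share was 0.0483% to 0.0551% in these KO libraries and 0.0234% to 0.0383% in the WT libraries, and its part in the difference was not tested.

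In the other mutant comparisons the members mostly overlapped. In KO-TRAMP at 10 weeks miR-365-3p and miR-365-1-5p were below WT-TRAMP without overlap (2 of 4, against 8.75% of all miRNAs), by -0.68 (SE 0.28) and -0.52 (SE 0.39) on the log2 scale. In KO at 10 weeks miR-365-3p alone was below WT without overlap (1 of 4, against 11.1%), by -0.52 (SE 0.28). In KO-TRAMP at 30 weeks and in all 4 A537T comparisons 0 of 4 members lay wholly below or above the control. The shares of all miRNAs wholly below were 7.59% for KO-TRAMP at 30 weeks, 4.67% and 3.89% for A537T at 10 and 30 weeks, and 13.2% and 4.86% for A537T-TRAMP at 10 and 30 weeks. The shares wholly above were 17.9%, 2.14%, 7.59%, 0.973% and 15.2% in the same order, and 15.4%, 0.973% and 3.89% for KO and KO-TRAMP at 10 weeks and KO at 30 weeks, where 0 of 4 members lay above. KO and A537T of 1 background and age share their control libraries. In A537T at 30 weeks the members spread widely: library 26 held 347 CPM of miR-193b-3p and 16.5 CPM of miR-365-1-5p, while library 27 held 60.3 and 2.19 CPM.

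None of the 3 other arms passed in the 24 tests against the genotype (limma, smallest adjusted p = 0.0652), and 5 of 24 had an unadjusted p under 0.05. The smallest adjusted p was that of miR-193a-5p in KO at 10 weeks, which read 3.93, 4.19 and 4.39 CPM against 6.64, 7.36 and 13.7 CPM in WT, without overlap. Its log2 difference was -0.92 (SE 0.28). edgeR and DESeq2 each passed 1 of the 24 tests, this one, with adjusted p of 0.0244 and 0.00921, and limma passed it without library 28 (adjusted p = 0.0183). miR-365-2-5p in the same comparison read 1.99, 1.61 and 1.01 CPM against 2.55, 2.58 and 3.45 CPM (-0.62, SE 0.21, adjusted p = 0.0977). The WT libraries there were those with the high skeletal muscle share, and 4 of the 5 skeletal muscle miRNAs fell in KO against 3.31% of all miRNAs. With the muscle reads left out of the totals both arms passed (limma, adjusted p = 0.0127 and 0.0170). miR-193b-5p in KO at 30 weeks differed by -0.89 (SE 0.32, adjusted p = 0.116), and passed without library 23 (adjusted p = 0.0405). Of all miRNAs limma called 3.89% in KO and 0.195% in A537T at 10 weeks, and at 30 weeks 0.584% in KO and 6.23% in KO-TRAMP. As numbers of miRNAs these were 20, 1, 3 and 32. In the same order edgeR called 25, 0, 50 and 50, and DESeq2 40, 2, 65 and 61. In the other 4 comparisons limma called 0%, with 26 to 43 miRNAs at an unadjusted p under 0.05, 0 to 7 called by edgeR and 0 to 21 by DESeq2.

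The third question was how the members differed between 30 and 10 weeks of age. miR-193b-3p, miR-365-3p and miR-365-1-5p were lower at 30 weeks in WT-TRAMP without overlap (3 of 4 members, against 25.1% of all miRNAs, and 0 above, against 17.9%). miR-193b-3p was 46.4 ± 10.5 CPM at 30 weeks against 110.6 ± 22.7 CPM at 10 weeks (-1.24, SE 0.56), miR-365-3p 49.3 CPM against 76.1 CPM (-0.60, SE 0.28) and miR-365-1-5p 5.21 ± 0.808 against 8.02 ± 0.943 CPM (-0.54, SE 0.39). The leukocyte share in WT-TRAMP was 0.0396% to 0.0732% at 10 and 0.0898% to 0.115% at 30 weeks, and the epithelial share 8.12% to 9.38% and 6.23% to 7.89%, neither overlapping. In WT without TRAMP miR-365-3p was instead higher at 30 weeks, at 289.9 ± 21.4 against 220.0 ± 40.3 CPM (0.41, SE 0.28), with no overlap (1 of 4 members above, against 16.9%, and 0 below, against 10.1%). The WT libraries of 10 weeks held the most skeletal muscle reads, and with these left out of the totals the difference was 0.09. The epithelial share in WT was 4.61% to 6.92% at 10 and 8.19% to 10.3% at 30 weeks. In KO miR-193a-3p and miR-193b-3p were lower at 30 weeks without overlap (2 of 4, against 41.8%, and 0 above, against 11.1%), by -0.77 (SE 0.37) and -1.07 (SE 0.56). The median of all miRNAs in KO was itself -0.29, and the 2 members ranked 137 and 98 from the lowest of 514. With 2 of 4 near the share of all miRNAs, nothing is read from that count. The KO shares did not overlap between 10 and 30 weeks for leukocytes (0.0371% to 0.0386% and 0.0483% to 0.0551%), epithelium (5.56% to 5.76% and 6.97% to 9.30%) and smooth muscle (29.8% to 35.3% and 12.4% to 29.3%). The part of these cell types in the differences with age was not tested. In A537T, KO-TRAMP and A537T-TRAMP 0 of 4 members separated the ages, where the shares of all miRNAs wholly below were 22%, 5.64% and 4.47% and wholly above 12.8%, 19.3% and 19.5%.

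The other arms passed in 0 of 18 tests of age (limma, smallest adjusted p = 0.182), with 0 at an unadjusted p under 0.05. edgeR passed 0 and DESeq2 1, miR-193a-5p in KO. limma called 9.53%, 14.8%, 15.2%, 7.59%, 22.2% and 5.45% of all miRNAs in WT, KO, A537T, WT-TRAMP, KO-TRAMP and A537T-TRAMP. Differences between effects, such as the effect of TRAMP at 30 minus that at 10 weeks, passed for the arms in 0 of 33 tests (limma, smallest adjusted p = 0.174), with 1 at an unadjusted p under 0.05. edgeR and DESeq2 each passed 1, miR-193a-5p for the effect of TRAMP in KO at 30 minus 10 weeks. limma called between 0% and 31.9% of all miRNAs in these 11 differences.

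In order of mean level, miR-365-3p ran from WT at 30 weeks (289.9 CPM) through A537T at both ages and WT at 10 weeks down to KO at 30 weeks (160.8 CPM) and KO at 10 weeks (151.3 CPM). The 6 TRAMP groups followed, from WT-TRAMP at 10 weeks (76.1 CPM) to KO-TRAMP at 10 weeks (46.9 CPM). The step from KO at 10 weeks to WT-TRAMP at 10 weeks was the only one between neighbours in this order without overlap. For miR-193b-3p the order ran from 247.6 CPM in WT at 30 weeks to 31.4 CPM in KO-TRAMP at 30 weeks, for miR-193a-3p from 4.94 CPM in WT at 10 weeks to 1.02 CPM in KO-TRAMP at 30 weeks, and for miR-365-1-5p from 12.3 CPM in WT at 30 weeks to 4.03 CPM in KO-TRAMP at 30 weeks. In these 3 orders every group overlapped with the next. KO-TRAMP at 30 weeks thus had the lowest mean for 3 of the 4 members, though other TRAMP groups of 30 weeks stood next to it. A537T-TRAMP followed for miR-365-1-5p (4.06 CPM) and miR-193a-3p (1.145 CPM), and WT-TRAMP for miR-193b-3p (46.35 CPM). For miR-365-3p KO-TRAMP at 30 weeks ranked 9 of 12 from the highest.

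Ratios of reads within a library compare the copies and arms without scaling. miR-193b-3p exceeded its seed partner miR-193a-3p in 36 of 36 libraries, by 10.4 to 152 times (median 42.2), where the highest ratio came from the 1 read of miR-193a-3p in library 35. The median ratio was 42.8 without TRAMP and 41.3 with it. miR-365-1-5p exceeded miR-365-2-5p in 36 of 36 libraries, by 1.03 to 8.72 times, so the 5p arm of the chromosome 16 copy had more reads in each. The lowest ratio, in library 27, came from 32 against 31 reads, which counting error does not separate. Library 35 held 7 reads against 1. The 3p arm dominated the Mir193b hairpin in all 36 libraries, at 13.7 to 137 times the 5p arm, whereas in Mir193a the 3p arm exceeded the 5p arm in 3 of 36 libraries (ratios of 0.141 to 1.93). The lowest ratios of 3p to 5p in both hairpins came from the same 2 libraries. Library 30 of WT at 10 weeks had 13.7 for miR-193b and 0.141 for miR-193a, and library 23 of KO at 30 weeks had 17.1 and 0.158. Each held the smallest smooth muscle share of its group, 6.74% and 12.4%, and the largest skeletal muscle share, 30.6% and 0.82%. Library 26 of A537T at 30 weeks also held the smallest smooth muscle share of its group (16.3%), but the highest ratios there, 58.7 and 0.594. The part of these shares was not tested.

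The ratio of miR-365-3p to miR-365-1-5p went with the transgene. It ran from 16.2 to 70.4 (median 25.4) in the 18 libraries without TRAMP and from 6.09 to 25.04 (median 9.56) in the 18 TRAMP libraries. The 9 TRAMP libraries of 10 weeks and those of WT-TRAMP at 30 weeks gave at most 11.04, while KO-TRAMP and A537T-TRAMP at 30 weeks reached 19.57 and 25.04. Since both quantities are members, this is given without a test.

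**Figure D4:**
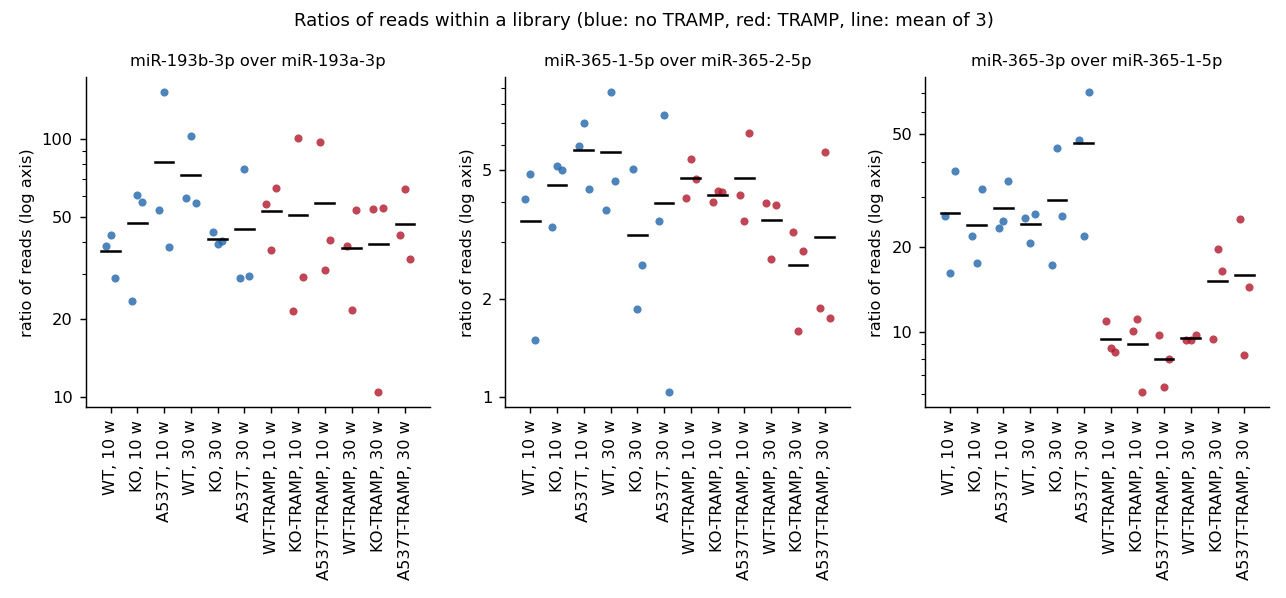
Ratios of reads within a library (vertical axes, log scale) for miR-193b-3p over miR-193a-3p, miR-365-1-5p over miR-365-2-5p and miR-365-3p over miR-365-1-5p, in the 12 groups (horizontal axes, w for weeks). Points are libraries, blue without TRAMP and red with TRAMP, and lines are means of 3. The first 2 ratios overlap between colours, and the third runs from 16.2 to 70.4 in blue and from 6.09 to 25.04 in red.

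Likeness between miRNAs was described by Pearson's r of log2(CPM + 1) over the 36 libraries, which share their totals and the TRAMP contrast between them. Among the members r ran from 0.56 (miR-193a-3p with miR-365-1-5p) to 0.82 (miR-193b-3p with miR-365-1-5p). Taken as deviations from the group means, the latter pair, both from chromosome 16, kept 0.81, whereas miR-193a-3p with miR-365-3p fell from 0.67 to 0.04. On these deviations the 3p and 5p arms of the same hairpin gave 0.39 for Mir193b and -0.31 for Mir193a. miR-193b-3p gave 0.85 with miR-574-3p, which is not of these clusters, so a high value was not particular to the chromosome 16 pair. Of the 296 other miRNAs with a mean of at least 10 CPM, miR-574-3p was most like miR-193b-3p (r = 0.93) and miR-365-1-5p (r = 0.73). Within the 18 libraries without TRAMP the r of miR-574-3p with miR-193b-3p was 0.89, and within the 18 TRAMP libraries 0.84. miR-365-3p was most like miR-664-3p (r = 0.91), miR-320-3p (r = 0.90) and miR-328-3p (r = 0.84), but these libraries form 2 separate clouds, and within the TRAMP libraries the values were 0.05, 0.43 and 0.02. The r of miR-365-3p with miR-664-3p was 0.53 within the libraries without TRAMP. miR-328-3p was also on the list of miRNAs known from brown or beige fat cells. miR-193a-3p was most like miR-3102-3p (r = 0.78), miR-22-3p (r = 0.73) and miR-29c-5p (r = 0.70), with 0.21, 0.24 and 0.12 within the TRAMP libraries. The next most like miR-193b-3p were miR-29c-5p (r = 0.84) and miR-3102-3p (r = 0.80), and the next most like miR-365-1-5p were miR-152-5p (r = 0.69) and miR-574-5p (r = 0.68).

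**Figure D5:**
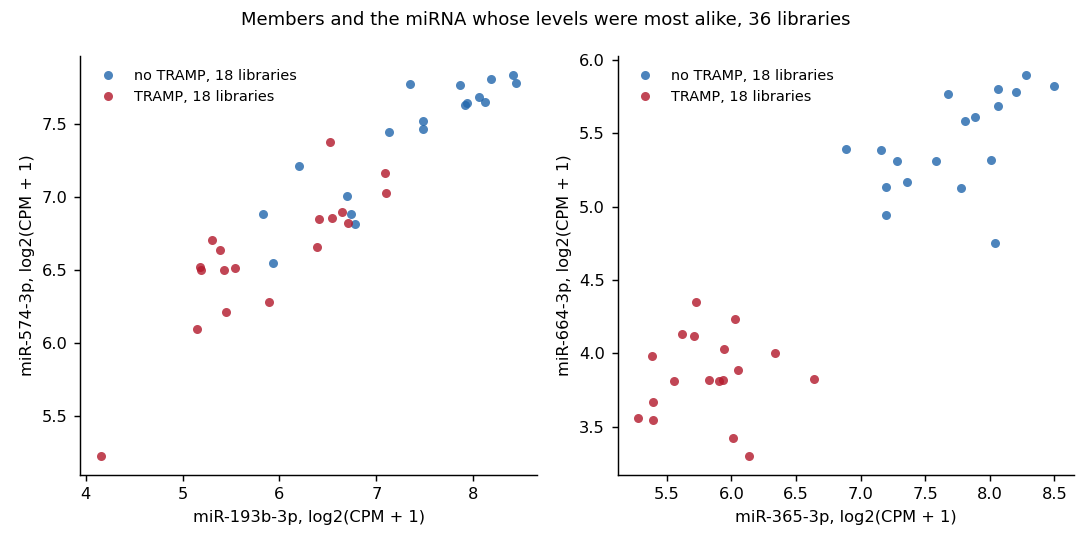
Levels on the log2(CPM + 1) scale of miR-193b-3p against miR-574-3p (left) and miR-365-3p against miR-664-3p (right) in the 36 libraries. Points are libraries, blue without TRAMP and red with TRAMP. On the left the 2 colours lie along 1 band (r = 0.89 and 0.84 within them), and on the right they form 2 clouds (r = 0.53 and 0.05 within them).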

How the data were processed

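Small RNA was sequenced on the Illumina NovaSeq from TruSeq libraries. The authors merged read pairs and removed adapters with BBMerge, counted miRNAs with mirDeep2 (version 0.1.3) on GRCm38 with miRBase 22.1, weighted reads by how many precursors they map to, and summed miRNAs of identical sequence. The deposited values are a normalised signal, reads divided by the DESeq2 size factor of each table, in 8 tables of 6 libraries. Deposited tables of the authors' own fold changes and s-values were not used. Columns carry a library number but no group: columns in both the KO and the mutant table of 1 background and age were read as controls, the others as the line in the table's name, with mutant read as A537T. Every group, and so every comparison, rests on this reading.

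Whole reads were recovered (100% of values within 0.01 of a whole read) and divided by the library total to give CPM. limma 3.58.1 (R 4.3.3) with a variance trend was fitted to log2(CPM + 1) of the 514 miRNAs with a mean of at least 1 CPM over the 36 libraries in 12 groups, two-sided, with adjusted p by Benjamini-Hochberg per comparison, called under 0.05. Per the study's methods the 3 libraries of a group came from 3 mice, so p-values measure the spread between mice. edgeR 4.0.16 and DESeq2 1.42.0 on the recovered reads were alternatives. The fit was tested on simulated data. Intervals are 95% Wilson intervals. miRNAs named besides the members and arms were the 3 most alike per member by r and the 2 most abundant of each marker list. The members and lists were chosen with earlier results of these data known.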

Additional observations from a re-analysis of the deposited data

Results flagged for a closer look

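miR-365-3p was flagged because it separated the ages in opposite directions in 2 backgrounds. All 3 WT libraries of 30 weeks lay above all 3 of 10 weeks (log2 difference 0.41, SE 0.28), as did 16.9% of all miRNAs. All 3 WT-TRAMP libraries of 30 weeks lay below all 3 of 10 weeks (-0.60, SE 0.28), as did 25.1%. The medians of all miRNAs were 0.14 and -0.02. With skeletal muscle reads left out of the totals the differences of miR-365-3p were 0.09 and -0.60. The difference between these changes was not tested, since the member was chosen on these levels.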

How the results depend on the processing

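All 24 differences of the members with TRAMP were negative under total, TMM and muscle-free scaling, although the median of all miRNAs in WT at 10 weeks was -0.05, -0.11 and -0.28 under them. Over all alternatives 3 of the 24 changed sign in 1 value each, all of miR-365-1-5p, and 12 of 32 differences with genotype and 7 of 24 with age changed sign in at least 1 value. The study's methods describe the mice as matched by age and by litter. No paired analysis was possible, because neither the columns nor the sample labels name a litter. Alternatives without libraries 30 and 35 were chosen after seeing the data. miR-193a-3p and the 5p arms, with means of 1.80 to 7.11 CPM, rest on few reads in the shallower libraries. The causes of the changes below were not tested.

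The member differences that moved by more than the replicate spread were as follows. A pseudocount of 5 gave -0.44, -0.58 and -0.40 for miR-193a-3p with TRAMP in A537T at 30, KO at 10 and WT at 30 weeks. edgeR gave -1.30, -1.49 and -1.64 for miR-193a-3p with TRAMP in WT at 10, KO at 30 and A537T at 30 weeks, -1.79 for miR-365-3p in KO at 30 weeks and -1.03 for miR-365-1-5p in A537T at 30 weeks. DESeq2 gave -1.49 and -1.71 for miR-193a-3p in KO and A537T at 30 weeks, -1.34 and -1.79 for miR-365-3p in KO at 10 and 30 weeks, and -1.09 for miR-365-1-5p in A537T at 30 weeks. With age, edgeR gave -0.88 and -1.02 and DESeq2 -0.81 and -0.995 for miR-193a-3p in KO-TRAMP and A537T-TRAMP, and DESeq2 gave 0.54 for miR-365-3p in KO. Without libraries 30 and 35, miR-193b-3p differed by -1.24 with TRAMP in WT at 10 weeks, by -0.39 and -0.25 in KO and A537T against WT at 10 weeks, and by -0.16 with age in WT. Leaving out 1 library at a time gave ranges of -1.24 to -0.0889, -0.39 to 0.76, -0.22 to 0.93 and -0.16 to 0.99 for these 4, whose negative ends were all without library 30 and highest values without library 28. For miR-365-1-5p in A537T at 30 weeks the ranges were -1.08 to 0.15 with TRAMP, -1.59 to -0.37 against WT and -1.22 to 0.00893 with age, set by libraries 26 and 27.

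For the other arms with TRAMP, miR-193a-5p in WT at 10 weeks lost its call in the fit of 6 libraries (-0.87) and without libraries 30 and 35 (-0.57), as did the call in KO at 30 weeks in the fit of 6 libraries (-0.83) and that in A537T at 30 weeks with a pseudocount of 5 (-0.52) and with no filter (-0.90). miR-193b-5p in A537T at 10 weeks lost its call in 7 settings: pseudocount 5 (-0.36), no filter and 6 libraries (-0.85 each), TMM (-0.69), without libraries 30 and 35 (-0.85), edgeR (-1.14) and DESeq2 (-1.03). Calls gained were miR-193b-5p in KO at 30 weeks (TMM -0.90, edgeR -1.61, DESeq2 -1.65) and A537T at 30 weeks (-0.93, -1.57 and -1.64), and miR-365-2-5p in WT at 10 weeks (pseudocount 5 -0.22, muscle-free -0.75, no trend -0.50, edgeR -0.96). miR-193a-5p in KO at 10 weeks turned positive with TMM (0.0309), edgeR (0.0572) and DESeq2 (0.246), and so did miR-365-2-5p in A537T (0.145, 0.0594 and 0.165) and, with DESeq2, in KO (0.0469). Against genotype, miR-193a-5p in KO at 10 weeks gained a call with pseudocount 5 (-0.60), TMM (-1.09), muscle-free totals (-1.19), edgeR (-1.39) and DESeq2 (-1.49), and miR-365-2-5p with muscle-free totals (-0.84). miR-365-2-5p in KO at 30 weeks, near 0, turned positive with TMM (0.0082), deposited values (0.0333) and DESeq2 (0.0517).

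Leaving out 1 library at a time gave these ranges for arms with TRAMP: miR-193a-5p -1.05 to -0.57 in WT at 10, -1.04 to -0.45 in KO at 30 and -0.995 to -0.79 in A537T at 30 weeks, miR-193b-5p -1.04 to -0.62 in A537T at 10, -0.99 to -0.42 in KO at 30 and -1.24 to -0.44 in A537T at 30 weeks, and miR-365-2-5p -0.62 to -0.40 in WT and -0.12 to 0.12 in A537T at 10 weeks. Against genotype in KO they were -1.10 to -0.63 for miR-193a-5p and -0.74 to -0.46 for miR-365-2-5p at 10 weeks, and -1.22 to -0.72 for miR-193b-5p and -0.27 to 0.0519 for miR-365-2-5p at 30 weeks.

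Summed over comparisons, limma made 56 calls over all miRNAs against genotype, 970 with TRAMP, 384 with age and 271 for differences between effects. Against genotype the sum was 95 with no filter, 32 with a mean of at least 10 CPM, 85 with TMM, 0 in fits of 6 libraries or of deposited values, 133 with edgeR, 198 with DESeq2, and 24 without library 17 to 133 without library 28. A mean of at least 10 CPM gave 634 with TRAMP, 245 with age and 161 for differences, DESeq2 580 with age and 436 for differences, and leaving out a library 163 to 470 for differences. Of the arms' tests, 4 in place of 7 passed with TRAMP in fits of 6 libraries. Against genotype, in place of 0, 1 passed with pseudocount 5, TMM, edgeR or DESeq2, 2 with muscle-free totals and 0 to 2 leaving out a library. With DESeq2 1 passed with age, and 1 for differences with edgeR or DESeq2.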
